A study of Homo sapiens with 6 samples.

Results

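The alpha-ketoglutarate-dependent dioxygenases are enzymes that use molecular oxygen, iron and alpha-ketoglutarate, a metabolite that cells can make from glutamine, to oxidise DNA, RNA, protein or lipid. Here 44 of their genes were followed among the 60107 gene IDs of the deposited table: 3 TET genes, 14 genes of JmjC histone demethylases, 5 of other JmjC hydroxylases, 3 EGLN genes, 4 prolyl 4-hydroxylase genes, 3 prolyl 3-hydroxylase genes, 3 lysyl hydroxylase genes, 6 AlkB genes and 3 others. They were chosen by name, for their enzyme class. Each name matched 1 Ensembl ID, all 44 are protein-coding, and all 44 passed the filter on low counts, down to P4HA3 with 13 counts in 1 library.

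The RNA came from H9, an established line of human embryonic stem cells, collected when day 9 ended in a protocol of 10 days that directs them towards nephron progenitors, from which the filtering units of the kidney form. The 3 libraries of 1 group were grown in complete medium with glutamine, and the 3 of the other group were deprived of glutamine from day 0. Both groups shared the line, the protocol and the day of harvest. The labels do not say whether the replicates were separate cultures, so the p-values measure only the spread between these samples, which may be technical.

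The libraries held 78220507 to 84746566 counts. Replicate 1 with glutamine stood apart from its group: Pearson's r of log2 CPM (counts scaled to library size) across genes was 0.9758 and 0.9762 with replicates 2 and 3, and 0.9908 to 0.9927 with those grown without glutamine. Counts of calls over the 44 genes and over the lists of related genes are therefore given with all 6 libraries and without it. That library was singled out from these same values. The p-values without it are therefore not independent support and only show how the calls depend on it. Of 15 nephron progenitor markers all were detected, with a summed level of 1049 to 1702 CPM with glutamine and 1596 to 2128 CPM without. Of 8 pluripotency markers, NANOG, TDGF1 and PRDM14 had at most 10 counts in any library. POU5F1 had 3 to 13 counts, at most 0.151 CPM. The list summed to 193 to 280 CPM with glutamine and 298 to 363 CPM without, most of it from DPPA4. DNMT3B was at 51.7 to 79.6 CPM over the 6 libraries. DPPA4 alone was at 113 to 184 CPM with glutamine and at 212 to 269 CPM without. The 7 somite markers summed to 158 and 160 CPM in replicates 3 and 2 with glutamine, to 44.1 CPM in replicate 1, and to 38.0 to 66.3 CPM without glutamine. The 5 endothelial markers summed to 29.6, 88.0 and 74.7 CPM with glutamine, in the order of the replicates, and to 17.7 to 23.1 CPM without. No marker of these lists was at 0 in all 6 libraries, and the part of these cell types in the results below was not tested. In such bulk RNA, fewer cells of a type and less RNA per cell cannot be told apart.

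As background, each of these enzymes couples the oxidation of its substrate to the conversion of alpha-ketoglutarate to succinate. TET enzymes oxidise 5-methylcytosine in DNA, and JmjC enzymes remove methyl groups from histone lysines. EGLN enzymes and HIF1AN hydroxylate hypoxia-inducible factor (HIF) when oxygen is present, the collagen hydroxylases modify procollagen in the endoplasmic reticulum, and AlkB enzymes remove alkyl groups from DNA or RNA. Their catalytic rate depends on the cofactor, but what was measured here is the level of their transcripts, not their activity.

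The comparison without against with glutamine asked how transcripts differ when glutamine is withheld. With all 6 libraries, edgeR's quasi-likelihood test called 0 of the 44 genes at a Benjamini-Hochberg adjusted p under 0.05, and 0.00442% of all 22613 genes tested. At an unadjusted p under 0.05 in edgeR there were 12 of the 44, or 27.3%, beside 29.7% of all genes: 4 higher without glutamine (14.7% of all genes) and 8 lower (15.0%). At an adjusted p from edgeR under 0.1, a wider threshold, 6 of 44 passed, or 13.6%, beside 14.5% of all genes. They were PLOD2, P3H2 and KDM2B, higher without glutamine (6.82%, beside 7.3% of all genes), and TET1, KDM5A and PHYH, lower (6.82%, beside 7.23%). These shares lie near the background.

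DESeq2 called 5 of 44 at an adjusted p under 0.05, or 11.4%, where it called 14.0% of all genes. The 3 on the higher side (7.54% of all genes) were PLOD2, KDM2B and P3H2, with DESeq2 adjusted p of 8.82e-05, 0.00603 and 0.0378. The 2 on the lower side (6.44% of all genes) were TET1 and PHYH, with 0.000301 and 0.0185. Limma-voom called 0 of 44 and 0 of 22613.

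Without replicate 1 with glutamine, edgeR called 20 of 44 at an adjusted p under 0.05, or 45.5%, beside 41.3% of all genes. Of these, 6 were higher without glutamine (13.6%, beside 22.3% of all genes) and 14 were lower (31.8%, beside 19.0%). With all 6 libraries the groups did not overlap for 16 of 44, or 36.4%, beside 34.2% of all genes tested. These were 7 on the higher side (17.3% of all genes) and 9 on the lower (16.9%). Without replicate 1 the groups did not overlap for 30 of 44, beside 63.4% of all genes: 10 on the higher side (32.1% of all genes) and 20 on the lower (31.3%). The median log2 fold change of the 44 was -0.01 with all libraries and -0.06 without replicate 1, and that of all genes was 0.001 and 0.008. Under upper quartile scaling 15 of the 44 were on the higher side and 29 on the lower, where the TMM scaling used here gave 20 and 24.

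**Figure D1:**
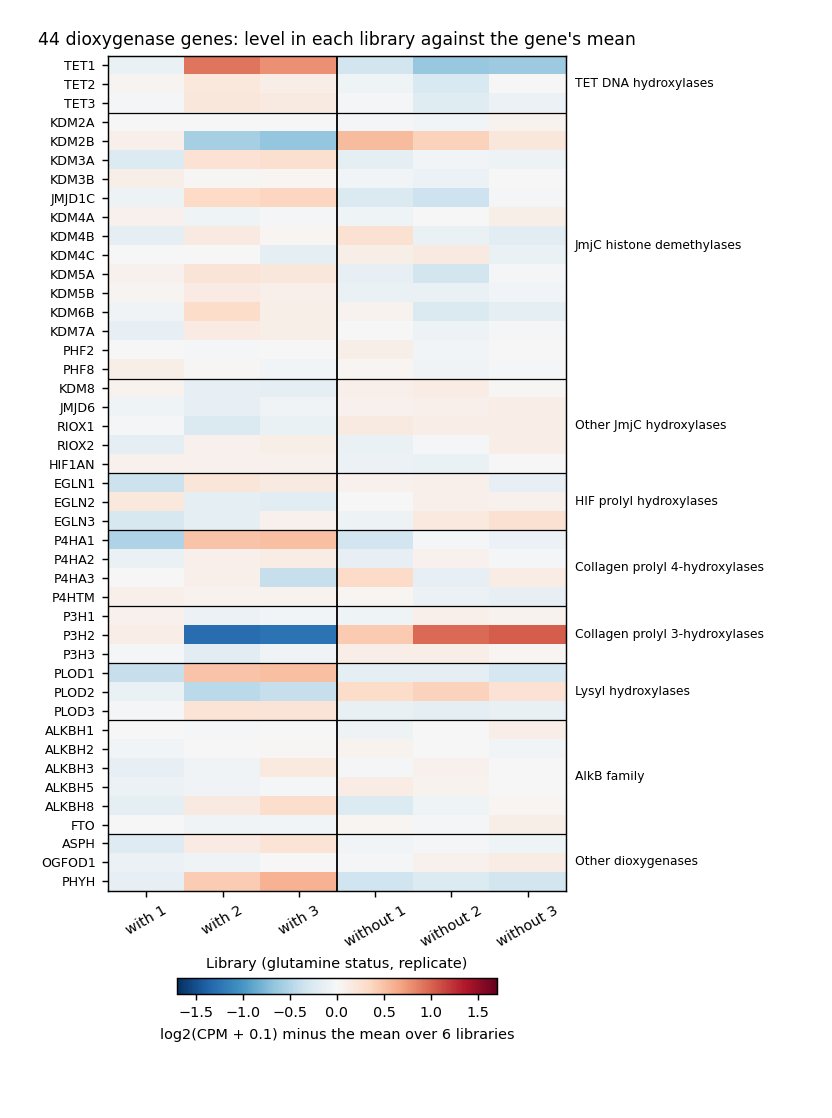
Level of each of the 44 genes (rows, grouped by family) in each of the 6 libraries (columns), as log2(CPM + 0.1) minus the gene's mean over the libraries, red above and blue below the mean. The strongest colours are in TET1, KDM2B, P3H2, PLOD1, PLOD2, P4HA1 and PHYH, where replicates 2 and 3 with glutamine lie opposite to the libraries without glutamine and replicate 1 lies between them or on the far side.

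Among the enzymes that act on DNA, TET1 had the lowest log2 fold change of all 44. TET1 (ENSG00000138336, chromosome 10 at 68560656 to 68694482, plus strand, GENCODE 29 on GRCh38) had, in the order of the replicates, 114, 231 and 211 CPM with glutamine and 99.2, 79.2 and 80.4 CPM without. All 3 libraries without glutamine were below all 3 with it, and replicate 1 with glutamine was close to them. The means were 185 ± 62.3 and 86.3 ± 11.2 CPM (SD, n = 3), a log2 change, the fold change without over with glutamine on the log2 scale, of -1.10 (SE 0.25, adjusted p = 0.0718 by edgeR). Without replicate 1 the log2 change was -1.35 (SE 0.10, adjusted p = 7.1e-06 by edgeR).

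TET2, which lacks the DNA-binding CXXC domain of its relatives, was at 71.3, 77.6 and 74.3 CPM with glutamine and at 65.6, 57.5 and 68.2 CPM without. The groups did not overlap, and the difference was small, at a log2 change of -0.22 (SE 0.09, adjusted p = 0.143 by edgeR). TET3 was at 107, 126 and 122 CPM with glutamine and at 108, 95.3 and 102 CPM without, with the same log2 fold change of -0.22 (SE 0.09, adjusted p = 0.155 by edgeR). For TET3, replicate 1 with glutamine lay inside the range of the other group. Without replicate 1, TET2 and TET3 had log2 fold changes of -0.25 and -0.28, with edgeR adjusted p of 0.0387 and 0.0129.

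Counts per kilobase of exon, over the merged exons of each gene, allow a rough comparison of the levels of related genes. On this scale TET1 made up 62.5% and 61.1% of the TET total in replicates 2 and 3 with glutamine, 48.5% in replicate 1, and 45.5%, 43.1% and 41.0% without glutamine. The TET3 share was 34.4%, 25.7% and 26.8% with glutamine and 37.6%, 39.3% and 39.4% without, a description with no test. TET1 was thus the most abundant TET transcript per kilobase in every library, with a smaller lead without glutamine. In CPM, TET3 was above TET1 in all 3 libraries without glutamine. There the order depends on the merged exon lengths used, 9288 bases for TET1 and 12271 for TET3. The lengths of the transcripts in use were not measured.

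**Figure D2:**
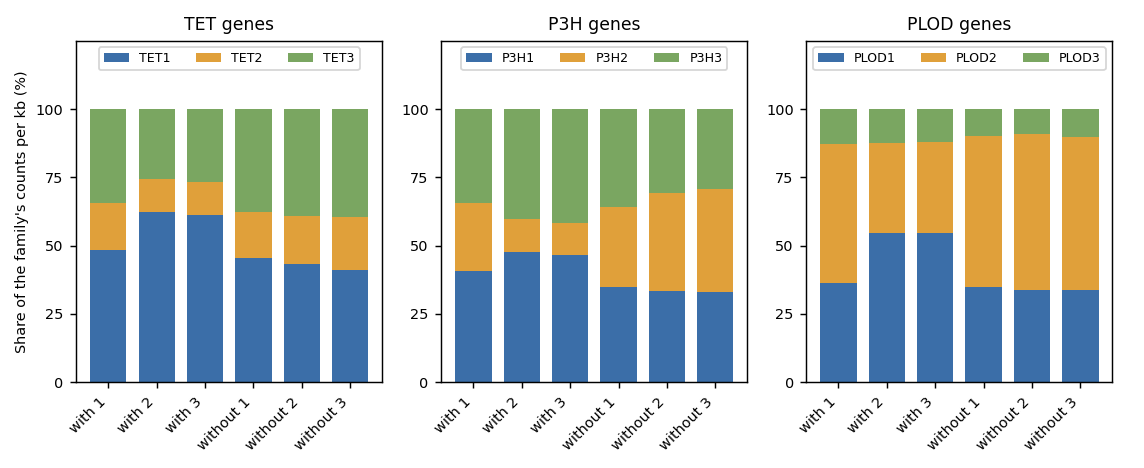
Share of each family's counts per kilobase of exon (vertical axis, percent) taken by each TET, prolyl 3-hydroxylase (P3H) and lysyl hydroxylase (PLOD) gene in each of the 6 libraries (horizontal axis). The TET1 share was 61.1% to 62.5% in replicates 2 and 3 with glutamine and 41.0% to 45.5% without, and replicate 1 with glutamine, at 48.5%, lay nearer the latter.

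Of the 14 JmjC histone demethylase genes, 1 was higher and 1 lower without glutamine at an adjusted p from edgeR under 0.1, beside 7.3% and 7.23% of all genes. Without replicate 1 with glutamine, 1 was higher and 5 were lower at an adjusted p under 0.05, beside 22.3% and 19.0% of all genes. KDM2B, which binds unmethylated CpG islands, recruits a Polycomb complex and demethylates H3K36, was the gene on the higher side. KDM2B (ENSG00000089094, chromosome 12 at 121429097 to 121581015, minus strand) was at 212, 136 and 126 CPM with glutamine and at 291, 262 and 229 CPM without. The lowest library without glutamine was just above replicate 1 with it. The means were 158 ± 47.1 and 261 ± 30.8 CPM (SD, n = 3), a log2 change of 0.72 (SE 0.20, adjusted p = 0.0856 by edgeR), and 1.0 (SE 0.10, adjusted p = 4.9e-05 by edgeR) without replicate 1. Its paralog KDM2A had a mean of 151 CPM in both groups (SD 1.13 with glutamine and 6.24 without, n = 3).

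KDM5A and KDM5B, which remove methyl groups from H3K4, were both lower without glutamine with no overlap. KDM5A was at 165, 183 and 180.1 CPM with glutamine and at 142, 126 and 155 CPM without, a log2 change of -0.32 (SE 0.09, adjusted p = 0.0879 by edgeR). KDM5B was at 511, 549 and 528 CPM with glutamine and at 459, 459 and 482 CPM without, a log2 change of -0.18 (SE 0.06, adjusted p = 0.122 by edgeR). Without replicate 1 their adjusted p from edgeR was 0.00837 and 0.0291.

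JMJD1C, of the KDM3 family, was at 182, 244 and 247 CPM with glutamine and at 162, 150.3 and 189 CPM without. Here replicate 1 with glutamine lay below the highest library without it, so the groups overlapped. The log2 change was -0.43 (SE 0.14, adjusted p = 0.111 by edgeR), and -0.55 (SE 0.09, adjusted p = 0.00118 by edgeR) without replicate 1. The H3K9 demethylase gene KDM3B, among the 4 most abundant of the 44 per kilobase, was at 348, 328 and 331 CPM with glutamine and at 314, 301 and 322 CPM without. Its groups did not overlap, but its log2 fold change was -0.10 (SE 0.06, adjusted p = 0.3 by edgeR). KDM3A, a hypoxia-induced relative, and KDM6B, an H3K27 demethylase, were lower without glutamine at an adjusted p under 0.05 only in the edgeR fit without replicate 1, with log2 fold changes of -0.36 and -0.32. The other 7 genes, KDM4A, KDM4B, KDM4C, KDM7A, PHF2, PHF8 and KDM2A, had log2 fold changes between -0.08 and 0.10 with all libraries and did not pass in either fit.

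Among the other JmjC hydroxylases, RIOX1, a nucleolar enzyme that hydroxylates a ribosomal protein, was at 17.8, 15.2 and 16.8 CPM with glutamine and at 20.1, 19.7 and 19.6 CPM without. All 3 libraries without glutamine were higher, by a log2 change of 0.25 (SE 0.09, adjusted p = 0.123 by edgeR), and 0.31 (adjusted p = 0.0136 by edgeR) without replicate 1. JMJD6, a lysyl hydroxylase of splicing factors, was also higher in all 3, with a log2 change of 0.18 (SE 0.08, adjusted p = 0.175 by edgeR). RIOX2, at -0.02, and KDM8, at 0.15, overlapped between groups. The exons of RIOX2 share 27.6% of their length with CRYBG3 on the opposite strand, and those of KDM8 share 14.5% with an antisense gene, so their counts are uncertain where the counting did not use strand. The same limit holds for ALKBH5 (11.2% of exon length), KDM4A (8.97%) and PLOD3 (7.56%, with ZNHIT1). KDM4A also shares 40.2% of its exon length with AL451062.3, a protein-coding gene on the same strand for which no counts were used here. EGLN2 shares 30.6% of its exon length with a readthrough gene on its own strand that had 0 counts.

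The oxygen-sensing hydroxylases did not pass an adjusted p of 0.1 in edgeR with all libraries, where 14.5% of all genes tested did. EGLN1, the main HIF prolyl hydroxylase of most cells, was at 75.4, 111 and 107 CPM with glutamine and at 102, 102 and 87.6 CPM without. Replicate 1 with glutamine was the lowest of the 6 libraries, and the log2 change was -0.01 (SE 0.15, adjusted p = 0.968 by edgeR), with a sign that changed between settings. EGLN2 was at 18.1, 14.2 and 14.1 CPM with glutamine and at 16.1, 17.1 and 16.9 CPM without. Replicate 1 was here the highest of the 6, and the log2 change was 0.11 (SE 0.12, adjusted p = 0.559 by edgeR), against 0.24 (adjusted p = 0.0375 by edgeR) without that library.

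EGLN3, itself a hypoxia-induced gene, was at 16.8, 18.3 and 21.3 CPM with glutamine and at 19.2, 22.9 and 24.3 CPM without, with overlapping groups and a log2 change of 0.23 (SE 0.13, adjusted p = 0.259 by edgeR). HIF1AN, the asparaginyl hydroxylase of HIF, was at 178.8, 180.0 and 180.0 CPM with glutamine and at 159.8, 157 and 169.7 CPM without. All 3 libraries without glutamine were lower, by a log2 change of -0.15 (SE 0.06, adjusted p = 0.169 by edgeR). Per kilobase, EGLN1 made up 72.8 ± 4.93% of the EGLN total with glutamine and 70.6 ± 3.13% without (SD, n = 3).

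Of 25 hypoxia-induced genes, 1 was higher and 0 were lower without glutamine at an adjusted p from edgeR under 0.1, while 2 were higher and 12 lower at 0.05 without replicate 1. Over all genes tested, the shares higher and lower were 7.3% and 7.23% at 0.1, and 22.3% and 19.0% at 0.05 without replicate 1. The list's median log2 fold change was -0.08 and -0.24 in these fits. Its summed level was 4406 CPM in replicate 1 with glutamine, 7139 and 7635 CPM in replicates 2 and 3, and 5258 to 5966 CPM without. The 4 genes with the smallest p had log2 fold changes of 1.67 for ADM, -1.10 for DDIT4, 0.44 for VEGFA and -1.09 for SLC2A3, with edgeR adjusted p of 0.0679, 0.104, 0.126 and 0.141. Of the 8 HIF subunits and partners, CITED2 was higher (log2 fold change 0.41) and HIF3A lower (-0.68) at an adjusted p from edgeR of 0.0689 and 0.0679. ARNT at -0.19 and VHL at 0.17 did not pass 0.1. Without replicate 1, 2 of the 8 were higher and 2 lower at 0.05.

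Several of these genes are known HIF targets, and HIF binds a core whose letters are ACGTG or GCGTG. The sequences below show each ACGTG, on either strand, in the 250 bases before the RefSeq starts (GRCh38.p14) of TET, EGLN, prolyl 4-hydroxylase and PLOD genes, with the matching letters in capitals. CACGTG holds the core on both strands and also the E-box of other factors. For PLOD2 the whole upstream window is shown (chr3:146161185-146161434, minus strand), with 2 separate matches, at -200 and -146 from the start. TET3 also had 2 separate matches before the same start, at -67 and -27, and these are shown as 30 bases each. The PLOD2 window lies inside the GENCODE 29 gene, whose first start is further upstream. The same holds for the windows of P4HA1, EGLN1 and EGLN2 below, and for the TET2 window at chr4:105146756-105146785. For the other genes 30 bases are shown: P4HA1 at chr10:73096935-73096964 and EGLN1 at chr1:231422283-231422312 on the minus strand, and EGLN2 at chr19:40799130-40799159, TET2 at chr4:105145849-105145878 and chr4:105146756-105146785, and TET3 at chr2:73984831-73984860 and chr2:73984871-73984900 on the plus strand.
PLOD2: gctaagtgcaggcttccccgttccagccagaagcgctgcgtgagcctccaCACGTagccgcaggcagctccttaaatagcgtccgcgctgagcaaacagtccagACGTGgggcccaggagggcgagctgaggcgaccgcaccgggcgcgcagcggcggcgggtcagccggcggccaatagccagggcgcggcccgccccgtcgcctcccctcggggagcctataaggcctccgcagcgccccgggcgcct
P4HA1: tgtgatcgagctCACGTagcgagggctgca
EGLN1: gggccgtggtgtACGTGcagagcgcgcaga
EGLN2: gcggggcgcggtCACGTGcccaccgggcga
TET2, first start: ttctactcagccCACGTGgctaaagtaaac
TET2, second start: tcgcatgcaagtCACGTccgccccctcggc
TET3, first match: tcggcggggccgCACGTGtgcgccctcccg
TET3, second match: tccccgggcgagCACGTGccgcggtgcgcg
Over all 35116 RefSeq promoters ACGTG, on either strand, was in 18.5% of windows of this length. Over the 57 promoters of the 39 genes that matched by symbol it was in 13, or 22.8%. The other form of the core, GCGTG, was neither counted nor marked. A match is a string of letters, not a measured binding site. Whether a match relates to the values of these genes was not tested.

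Collagen needs prolyl 4-hydroxylation for a stable triple helix. P4HA1, a catalytic subunit of that enzyme and the most abundant of the 44 genes per kilobase (chromosome 10 at 73007217 to 73096974, minus strand), was at 121, 243 and 249 CPM with glutamine and at 139, 169.6 and 162 CPM without. Replicate 1 with glutamine was below all 3 libraries without it, and replicates 2 and 3 were above them. The log2 change was -0.38 (SE 0.26, adjusted p = 0.344 by edgeR), and -0.65 (SE 0.09, adjusted p = 0.000322 by edgeR) without replicate 1. P4HA2 had means of 17.8 and 17.1 CPM, and P4HA3 was near the limit of detection at 0.165 to 0.337 CPM. P4HTM, a membrane enzyme known to act on HIF, was lower in all 3 libraries without glutamine by a log2 change of -0.13 (SE 0.08, adjusted p = 0.281 by edgeR).

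The prolyl 3-hydroxylases modify a few prolines of fibrillar and basement membrane collagens. P3H2, the member known for type IV collagen, had the highest log2 fold change of the 44. P3H2 (ENSG00000090530, chromosome 3 at 189956728 to 190122437, minus strand) was at 53.9, 20.2 and 20.8 CPM with glutamine and at 68, 96.8 and 101 CPM without. The groups did not overlap, and replicate 1 with glutamine lay closer to the lowest library without it than to its own group. The means were 31.6 ± 19.3 and 88.7 ± 18.1 CPM (SD, n = 3), a log2 change of 1.49 (SE 0.39, adjusted p = 0.081 by edgeR), and 2.12 (SE 0.16, adjusted p = 7.5e-06 by edgeR) without replicate 1. P3H1 overlapped between groups at a log2 change of 0.05, and P3H3 was higher in all 3 libraries without glutamine at 0.17 (SE 0.08, adjusted p = 0.172 by edgeR), and at 0.21 (SE 0.07, adjusted p = 0.0405 by edgeR) without replicate 1. Per kilobase, P3H2 took 11.9% and 12.2% of the P3H total in replicates 3 and 2 with glutamine, 24.7% in replicate 1, and 29.5% to 37.9% without.

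The lysyl hydroxylases prepare collagen for cross-linking, and PLOD2 is the one known to act on the collagen telopeptides. PLOD2 (ENSG00000152952, chromosome 3 at 146069440 to 146163653, minus strand) had the smallest p of the 44. It was at 224, 176 and 184 CPM with glutamine and at 301, 317 and 285 CPM without. The lowest library without glutamine lay above the highest with it, which was replicate 1. The means were 195 ± 25.7 and 301 ± 15.6 CPM (SD, n = 3), a log2 change of 0.63 (SE 0.10, adjusted p = 0.0679 by edgeR), and 0.74 (SE 0.07, adjusted p = 3.7e-05 by edgeR) without replicate 1.

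PLOD1, which acts on the triple helix, had a log2 change of opposite sign. It was at 112, 205 and 209.8 CPM with glutamine and at 131, 130.4 and 120.2 CPM without. Replicate 1 with glutamine was the lowest of the 6 libraries, so the groups overlapped, at a log2 change of -0.46 (SE 0.22, adjusted p = 0.209 by edgeR), and -0.70 (SE 0.07, adjusted p = 4e-05 by edgeR) without it. PLOD3, which also has glycosyltransferase activity, was at 41.7, 50.3 and 49.98 CPM with glutamine and at 39.4, 38.1 and 39.1 CPM without. Its groups did not overlap, with a log2 change of -0.29 (SE 0.09, adjusted p = 0.105 by edgeR), and -0.37 (SE 0.07, adjusted p = 0.00202 by edgeR) without replicate 1. Per kilobase, PLOD2 made up 32.7% and 33.3% of the PLOD total in replicates 2 and 3 with glutamine, 50.8% in replicate 1, and 55.4% to 57.0% without.

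**Figure D3:**
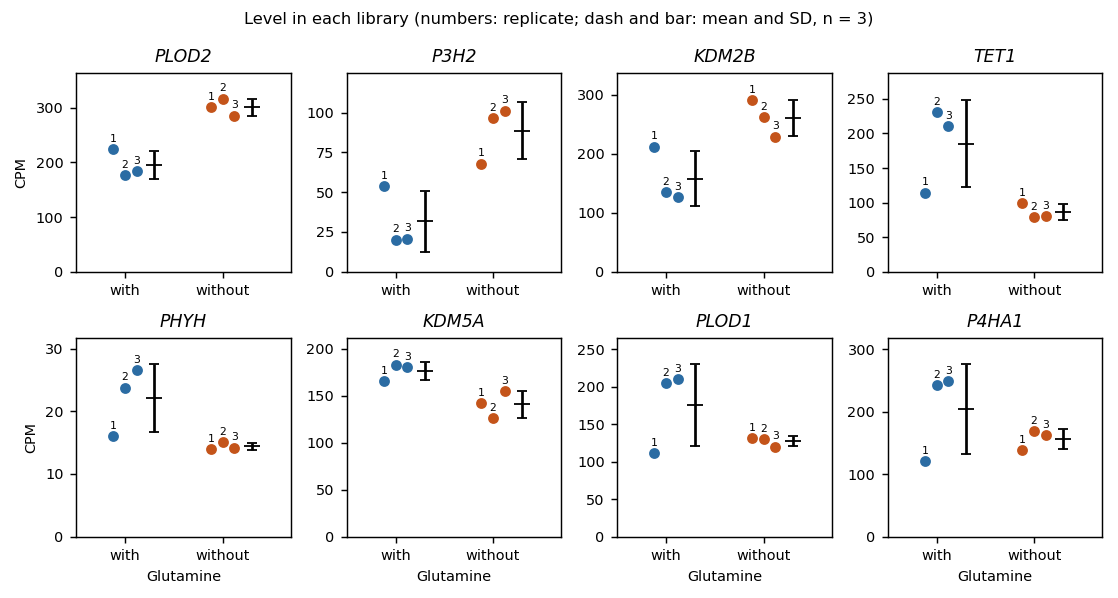
CPM (vertical axis, from 0) of 8 of the 44 genes in the 3 libraries with glutamine (blue) and the 3 without (orange), with the replicate number over each point and the mean and SD (n = 3) beside it. PLOD2, P3H2 and KDM2B lie higher in all 3 libraries without glutamine and TET1, PHYH and KDM5A lower, while for PLOD1 and P4HA1 replicate 1 with glutamine is the lowest of the 6 points.

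Of 14 collagen substrate genes, 7 were higher and 2 lower without glutamine at an adjusted p from edgeR under 0.1, beside 7.3% and 7.23% of all genes tested. Without replicate 1, 8 were higher and 3 lower at 0.05, beside 22.3% and 19.0%. Their median log2 fold change was 0.60 with all libraries and 0.81 without replicate 1. COL4A1 (1.16), COL4A2 (0.87), COL5A1 (0.51) and COL11A1 (1.05), the 4 with the smallest p, each had an edgeR adjusted p of 0.0679. Of 10 hydroxylase partners and collagen chaperones, 2 were higher and 1 lower at 0.1, and 3 were higher and 2 lower at 0.05 without replicate 1. CRTAP, which forms a complex with P3H1, was lower, at 151, 239.8 and 255 CPM with glutamine and at 127, 128.5 and 131 CPM without (log2 fold change -0.74, adjusted p = 0.0751 by edgeR). P4HB, the partner subunit of prolyl 4-hydroxylase, and FKBP14 were higher at 0.25 and 0.33, and TMEM38B at -0.21 did not pass. Markers of smooth muscle and fibroblasts, cells that make collagen, summed to 223, 268 and 292 CPM with glutamine and to 289, 445 and 446 CPM without. In that list 3 of 7 genes were higher and 0 lower at an adjusted p from edgeR under 0.1, 5 were higher and 1 lower at 0.05 without replicate 1, and none was at 0. Their part in the collagen enzymes' values was not tested.

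None of the 6 AlkB genes passed an adjusted p of 0.1 in edgeR with all libraries, beside 14.5% of all genes tested. ALKBH5, which demethylates N6-methyladenosine in RNA and was also among the 4 most abundant per kilobase, was at 88.7, 91.6 and 94.0 CPM with glutamine and at 104, 99.1 and 94.4 CPM without. The groups did not overlap, though the gap between them was small beside the spread, and the log2 change was 0.12 (SE 0.07, adjusted p = 0.282 by edgeR). FTO, the other demethylase of that mark, overlapped at 0.07 (SE 0.07, adjusted p = 0.505 by edgeR). ALKBH1, ALKBH2 and ALKBH3, which act on DNA or RNA alkylation, each had a log2 change of 0.01. ALKBH8, a tRNA-modifying enzyme, was at -0.20 with all libraries and at -0.32 (adjusted p = 0.023 by edgeR) without replicate 1.

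Of the remaining 3 genes, PHYH, the peroxisomal enzyme that starts the breakdown of phytanic acid, differed most. PHYH (ENSG00000107537, chromosome 10 at 13277796 to 13302412, minus strand) was at 16.0, 23.8 and 26.6 CPM with glutamine and at 13.97, 15.1 and 14.2 CPM without. All 3 libraries without glutamine were lower, and replicate 1 with glutamine was closest to them. The means were 22.1 ± 5.48 and 14.4 ± 0.58 CPM (SD, n = 3), a log2 change of -0.62 (SE 0.18, adjusted p = 0.0902 by edgeR), and -0.80 (SE 0.09, adjusted p = 7.2e-05 by edgeR) without replicate 1. ASPH, which hydroxylates epidermal growth factor-like domains, was at -0.11, and at -0.23 (adjusted p = 0.0178 by edgeR) without replicate 1. OGFOD1, a ribosomal prolyl hydroxylase, overlapped at 0.12 (SE 0.07, adjusted p = 0.3 by edgeR).

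**Figure D4:**
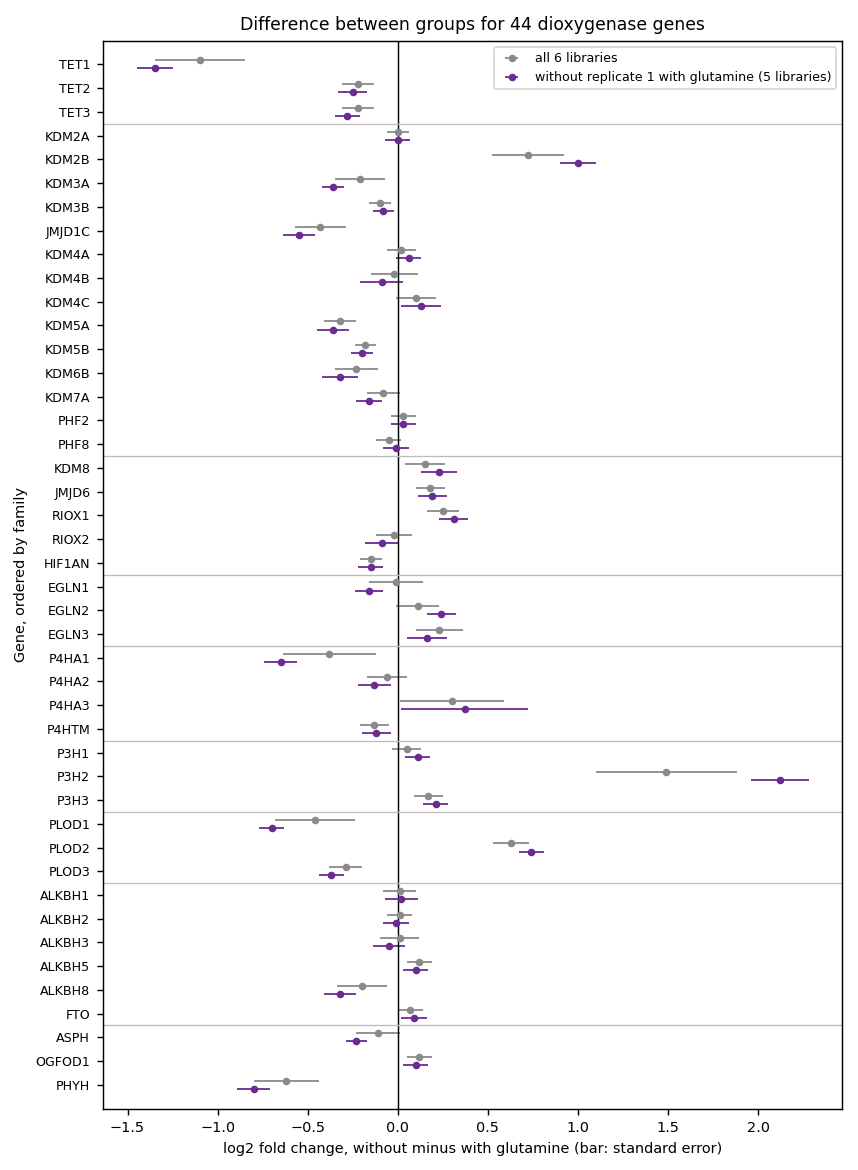
Log2 fold change without minus with glutamine (horizontal axis) of the 44 genes, ordered by family, with bars of 1 standard error, from the fit with all 6 libraries (grey) and the fit without replicate 1 with glutamine (purple). P3H2 (1.49 and 2.12), KDM2B (0.72 and 1.0) and PLOD2 (0.63 and 0.74) lie farthest to the right and TET1 (-1.10 and -1.35) farthest to the left, and most AlkB genes lie near 0.

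For 30 of the 44 genes, or 68.2%, replicate 1 with glutamine was nearer the mean of the libraries without glutamine than that of replicates 2 and 3, beside 62.0% of all genes tested. In 14 of these the mean was higher without glutamine (32.0% of all genes) and in 16 lower (30%). For 15 of 44, or 34.1%, it lay outside the range of the other 5 libraries, beside 29.6% of all genes, with 5 of them higher without glutamine (14.4% of all genes) and 10 lower (15.2%). P4HA1, PLOD1, EGLN1 and KDM3A were among those where it was the lowest library. On the log2(CPM + 0.1) scale its distance from replicates 2 and 3 was -1.02 for P4HA1 and -0.89 for PLOD1, where the libraries without glutamine lay at -0.65 and -0.70. For TET1 these distances were -0.95 and -1.36, for P3H2 1.39 and 2.09, for KDM2B 0.70 and 0.99, and for PLOD2 0.32 and 0.74. PLOD2 was thus the one of these genes for which that library stayed nearer its own group.

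**Figure D5:**
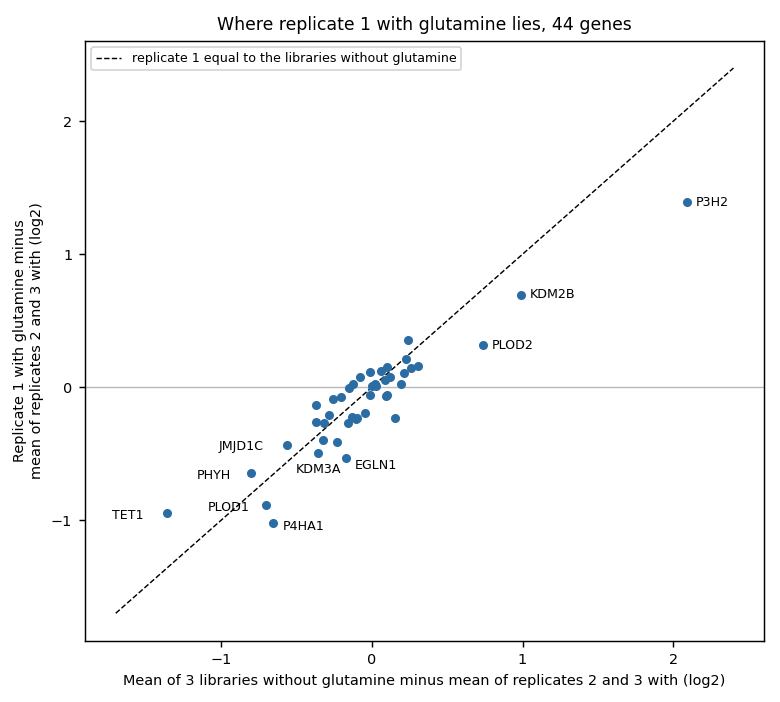
For each of the 44 genes, replicate 1 with glutamine (vertical axis) and the mean of the 3 libraries without glutamine (horizontal axis), both as the difference from the mean of replicates 2 and 3 with glutamine in log2(CPM + 0.1). Points on the dashed line would be equal to the libraries without glutamine and points on the grey line equal to replicates 2 and 3. P4HA1, PLOD1 and EGLN1 lie below the dashed line, and PLOD2 and P3H2 lie between the lines.

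Also listed were 16 enzymes whose reactions can form alpha-ketoglutarate, though the aminotransferases among them, such as OAT, can also use it. Of these 16, 3 were higher and 0 lower without glutamine at an adjusted p from edgeR under 0.1. They were GPT2 (log2 fold change 0.51) and PSAT1 (0.50), which transfer amino groups from glutamate, and IDH1 (0.58), a cytosolic isocitrate dehydrogenase. Their adjusted p from edgeR was 0.0679, 0.0689 and 0.0737, and OAT at 0.23 did not pass. IDH1 was at 172, 122 and 133 CPM with glutamine and at 191, 219 and 229 CPM without. Without replicate 1, 6 of the 16 were higher and 0 lower at 0.05. All genes tested gave 7.3% higher and 7.23% lower at 0.1, and 22.3% and 19.0% at 0.05 without replicate 1. No metabolite was measured in these samples.

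A further list held 14 enzymes that use alpha-ketoglutarate, or that form or clear acids that inhibit the dioxygenases. These roles were not separated in the counts. At an adjusted p from edgeR under 0.1, 0 of the 14 were higher and 3 lower. Without replicate 1, 3 were higher and 3 lower at 0.05. All genes tested gave 7.3% higher and 7.23% lower at 0.1, and 22.3% and 19.0% at 0.05 without replicate 1. The 3 lower at 0.1 were SDHC (-0.42), a subunit of succinate dehydrogenase, SUCLG2 (-0.51), a subunit of succinyl-CoA synthetase, and ADHFE1 (-0.66), with adjusted p of 0.0736, 0.0905 and 0.089. OGDH, of the alpha-ketoglutarate dehydrogenase complex, was at 0.15 (adjusted p = 0.181 by edgeR), and at 0.19 (adjusted p = 0.0481 by edgeR) without replicate 1. Of 20 further dioxygenases outside the 44, 1 was higher and 1 lower at 0.1, and 3 were higher and 5 lower at 0.05 without replicate 1. TMLHE, an enzyme of carnitine synthesis, was lower at -0.47 (adjusted p = 0.0771 by edgeR). HR was higher at a log2 change of 1.24 (adjusted p = 0.0877 by edgeR) but had at most 0.209 CPM in any library. TYW5 at -0.26 and BBOX1 at -1.46, the latter under 0.7 CPM throughout, did not pass.

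TET and JmjC proteins remove marks that other enzymes write. Of 8 genes of DNA methylation, 1 was higher, UHRF1, the partner of the maintenance methyltransferase, at 0.49 (adjusted p = 0.0827 by edgeR). TDG (0.20), GADD45A (0.34) and GADD45B (0.48) did not pass, and without replicate 1 the list had 2 higher and 0 lower at 0.05. Of 19 histone lysine methyltransferase genes, 1 was higher and 3 were lower at 0.1, and 3 were higher and 4 lower at 0.05 without replicate 1. EZH2, the H3K27 methyltransferase of Polycomb, was higher at 0.32 (adjusted p = 0.0948 by edgeR), and KMT2A (-0.42), KMT2C (-0.43) and SETDB1 (-0.22) were lower at adjusted p from edgeR of 0.0762, 0.0801 and 0.0911. The list medians were 0.22 and -0.08. Beside these counts, all genes tested gave 7.3% higher and 7.23% lower at 0.1. Without replicate 1 they gave 22.3% and 19.0% at 0.05.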

How the data were processed

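RNA was measured in 6 libraries, 3 with and 3 without glutamine, by sequencing single ends of stranded mRNA libraries. Their raw counts, 1 row per Ensembl ID, were deposited by the authors as whole numbers. The submitters' processing notes name cutadapt, Trim Galore, FastQC, STAR 2.5.2b, DESeq2 and GRCh38, without roles. The counting program, annotation and strand setting are not given in the sources used here. Columns were assigned through the headings that the sample descriptions state. The headings read day 0 and day 9 although each sample is labelled day 9, and every direction rests on that assignment. The deposited normalized table was not used.

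Symbols, positions and merged exon lengths came from GENCODE 29, which matched 56531 of 60107 IDs. The test was that of edgeR 4.0.16 in R 4.3.3 (glmQLFit with legacy = FALSE, glmQLFTest, filterByExpr, TMM) over 22613 genes, with Benjamini-Hochberg adjustment and a threshold of 0.05. CPM is counts over the TMM-scaled library size. The SE is the absolute log2 fold change over the square root of F. DESeq2 1.42.0 and limma 3.58.1 (voom) were alternatives, as were other scalings, filters, a threshold of 0.1, the replicate block and leaving out each library. The test was first tested on simulated data.

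The members and lists were chosen with earlier results of these data known. Values per library are given for the 12 genes with the smallest p, the 4 highest and 4 lowest by log2 fold change whose larger group mean reached 50 counts, the 4 most abundant per kilobase, and all TET and EGLN genes. The values of HIF1AN by library lie outside this rule and were added after they were seen. From each list the 4 genes with the smallest p are named.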

Additional observations from a re-analysis of the deposited data

How the results depend on the processing

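The count of 1 gene called over all genes became 0 under upper quartile scaling, library size only, limma-voom, edgeR's legacy setting and the replicate block, 2 with no filter, 3041 under DESeq2 and 3285 at an adjusted p under 0.1. With 1 library left out it ran from 0 to 9573, the highest without replicate 1 with glutamine. The count of 0 members called was 5 under DESeq2 and 6 at an adjusted p under 0.1, and ran from 0 to 20 with 1 library left out, where only the fit without replicate 1 with glutamine called any. The members whose groups did not overlap, 16 in all, 7 higher and 9 lower, were 5 higher and 11 lower under upper quartile scaling, and ran from 16 to 30 with 1 library left out. Leaving a library out can only keep or raise that count, so this range is not a check on it. The members' median log2 fold change was -0.057 under upper quartile scaling and ran from -0.06 to -0.004 with 1 library left out. Of 304 alternative values for the 19 genes given by library, 279 had the same sign and the same call, 20 were newly called and 5 reversed. All 5 reversals were in EGLN1, at 0.01 under limma-voom and with the replicate block, and between -0.16 and 0.08 with 1 library left out. The cause of these differences was not tested. Libraries that share a replicate number did not deviate together (r of -0.021, 0 and 0.028 across genes), so no pairing was seen, and the replicate block called 0 members. The P4HA3 level, at most 29 counts, limits what can be said of that gene.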

Other observations

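The genes of N6-methyladenosine in RNA, the mark that ALKBH5 and FTO remove, were close in both groups. Of 11 writers and readers none passed an adjusted p of 0.1 in edgeR, beside 14.5% of all genes tested. In the fit without replicate 1 with glutamine, 1 was higher at 0.05, beside 22.3% of all genes. The 4 with the smallest p, YTHDF3 (0.12), YTHDF1 (0.10), YTHDF2 (0.11) and YTHDC2 (-0.13), had log2 fold changes of the size of those of ALKBH5 and FTO. The histone demethylases that use flavin in place of alpha-ketoglutarate, KDM1A at -0.24 (edgeR adjusted p 0.123) and KDM1B at 0.17 (edgeR adjusted p 0.202), did not pass either, and without replicate 1 KDM1A was lower at -0.31 (edgeR adjusted p 0.00383).

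In the nephron progenitor list, HOXC11, HOXD11, HOXA11 and GDNF had the smallest p. HOXD11 had 0.542, 0 and 0.0127 CPM with glutamine and 3.22, 5.33 and 6.05 CPM without. HOXC11 had 0.246, 0 and 0 CPM with glutamine and 1.79, 3.55 and 2.56 CPM without, and HOXA11 had 1.21, 0.0384 and 0.0764 CPM with glutamine and 3.45, 5.26 and 3.64 CPM without. GDNF had a log2 fold change of 1.37. In the other lists the 4 genes were DPPA4 (0.80), ZFP42 (0.38), DNMT3B (0.24) and SOX2 (-0.35) for pluripotency, and PAX3 (-2.40), MEOX2 (-1.46), MESP2 (-1.01) and UNCX (0.72) for somites. For endothelium they were CDH5 (-1.47), PECAM1 (-1.71), KDR (-2.01) and TEK (0.38), and for smooth muscle and fibroblasts ACTA2 (2.51), LUM (1.08), TAGLN (1.06) and DCN (1.64). For neural cells they were TUBB3 (1.01), NEUROG2 (-3.21), PAX6 (-0.35) and LHX2 (1.03), and for endoderm CER1 (2.29), SOX17 (-1.60), GATA6 (1.82) and HHEX (-2.21), each value a log2 fold change with all 6 libraries. CER1, SOX17, NEUROG2, LHX2 and MESP2 were under 1 CPM in every library.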
